A study of Mus musculus with 8 samples.

Results

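A set of 48 genes of mitosis and the kinetochore was followed through the development of the mouse retina. The genes were chosen by name, for what their products do in dividing cells, and each was found under its symbol with an FPKM value, an expression level normalized to transcript length and to the mapped fragments of the library, in all 8 libraries, so that 48 of 48 were measured, among 21828 genes in all. RNA sequencing had been done on retinas of the mouse strain slc:ICR. Whole retina was taken at embryonic day 15 (E15) and embryonic day 18 (E18). At postnatal days 2, 5, and 8 (P2, P5, and P8) retinal cells were sorted by the surface protein Cd73 into a positive fraction (Cd73PC), which is made of rod precursors and young rods, and a negative fraction (Cd73NC), which holds a mixture of the other cell types. Each sorted library came from several pooled retinas, no treatment or mutation was involved, and there was 1 library per condition, so no value below has a replicate error and no difference between a pair of libraries was tested. The study asked how rods and the other cells of the retina come to express different genes after birth. Comparing the fractions shows how the RNA levels of genes for cell division differed between them at each stage.

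When a cell enters mitosis, the kinase Cdk1 with its cyclin partners drives the condensation of chromosomes and the assembly of the spindle. Kinetochores, protein complexes built on centromeric chromatin, then tie each chromosome to spindle microtubules, and the spindle checkpoint holds back the anaphase promoting complex until all of them are attached. In the retina, progenitor cells divide through late embryonic life and the first days after birth, and the neurons they give rise to, rods among them, no longer divide.

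The sorted libraries matched their labels. Nt5e, the gene for Cd73, was between 97.3 and 131 FPKM in the Cd73PC libraries and between 2.43 and 31.4 FPKM in the Cd73NC libraries. The summed FPKM of 9 rod markers was 4748 to 15044 in Cd73PC, while in Cd73NC it went from 182 at P2 to 1514 and 1273 at the later stages, so rod RNA was present in the negative fraction, most of all at P5. None of the 9 was at 0 in any library. The depth of the libraries, relative to that of E18 whole retina, lay between 0.965 and 1.62. Because tissue and sorted fractions were measured in bulk, fewer dividing cells and less RNA per dividing cell cannot be told apart in any of the values that follow.

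Because most of these genes moved together over the 8 libraries, their promoters were examined for shared elements. The CCAAT box and the CHR (cell cycle genes homology region) are short elements known from promoters of genes expressed late in the cell cycle. RefSeq promoter windows (GRCm38.p6, 250 bases before to 50 bases after the start site, 1 window per gene) were found for 40 of the 48 genes. They were searched on both strands for CCAAT, which reads ATTGG on the other strand, for the hexamer TTTGAA, which then reads TTCAAA, and for the palindromic hexamer TTTAAA. In these windows no box match shared bases with a hexamer match. The windows of Ccna2, Cdc25c, Spc24, Aurkb, Incenp, Kif20a, Tpx2, and Smc4 were not among those used. Below are the 150 bases before the start site of 5 genes that fell in both fractions, to between 0.458% (Top2a) and 4.81% (Plk1) of their E18 level in P8 Cd73PC, and then of the 3 genes whose expression profile was least like that of the other genes, Bub3, Cenpn, and Kif22. Capitals mark the matches.
Ccnb1 (chr13:100786487-100786636, minus strand): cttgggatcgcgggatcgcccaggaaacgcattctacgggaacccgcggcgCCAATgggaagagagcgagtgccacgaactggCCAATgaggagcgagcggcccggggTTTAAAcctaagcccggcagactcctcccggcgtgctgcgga
Cdk1 (chr10:69352913-69353062, minus strand): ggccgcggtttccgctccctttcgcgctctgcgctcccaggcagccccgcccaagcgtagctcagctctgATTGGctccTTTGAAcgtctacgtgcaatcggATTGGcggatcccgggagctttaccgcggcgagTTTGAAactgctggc
Plk1 (chr7:122159285-122159434, plus strand): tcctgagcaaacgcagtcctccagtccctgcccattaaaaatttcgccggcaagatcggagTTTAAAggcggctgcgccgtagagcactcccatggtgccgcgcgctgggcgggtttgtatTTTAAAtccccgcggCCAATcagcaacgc
Cdc20 (chr4:118437344-118437493, minus strand): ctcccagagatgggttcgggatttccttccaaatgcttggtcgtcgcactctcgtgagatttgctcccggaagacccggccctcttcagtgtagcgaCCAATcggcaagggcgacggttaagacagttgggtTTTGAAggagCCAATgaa
Top2a (chr11:99024190-99024339, minus strand): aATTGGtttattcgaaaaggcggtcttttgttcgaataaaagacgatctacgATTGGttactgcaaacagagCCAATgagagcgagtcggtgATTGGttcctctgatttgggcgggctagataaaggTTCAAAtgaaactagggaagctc
Bub3 (chr7:131560220-131560369, plus strand): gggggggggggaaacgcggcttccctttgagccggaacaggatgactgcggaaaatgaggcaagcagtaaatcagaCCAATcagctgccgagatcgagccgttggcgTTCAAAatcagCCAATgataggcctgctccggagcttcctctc
Cenpn (chr8:116921590-116921739, plus strand): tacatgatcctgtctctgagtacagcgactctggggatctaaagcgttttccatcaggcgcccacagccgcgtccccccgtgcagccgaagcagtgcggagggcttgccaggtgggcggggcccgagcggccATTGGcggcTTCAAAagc
Kif22 (chr7:127042421-127042570, minus strand): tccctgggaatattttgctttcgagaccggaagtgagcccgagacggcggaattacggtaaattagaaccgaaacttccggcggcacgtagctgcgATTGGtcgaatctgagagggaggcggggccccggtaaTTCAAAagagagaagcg

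Of the 40 windows, 30 (75%) held a CCAAT box, against 37.9% of all 27025 promoters in the table and 39.6% of the 8713 whose gene had a mean of at least 1 FPKM here. A hexamer was found in 31 of them (77.5%), against 27.8% of all promoters and 17.8% of those of expressed genes. Both elements were present in 26 windows (65%), against 10.9% and 7.45%. Neighbouring CCAAT boxes 25 to 40 bases apart were found in 11 windows (27.5%), against 3.43% and 5.72%, as in Ccnb1 and Cdk1 above. The CCAAT matches lay mostly upstream of the start site, with 37 of 61 within 100 bases before it, while 20 of the 47 hexamer matches lay after it. Of the windows of 59 further mitosis genes, 69.5% held a CCAAT box, 62.7% a hexamer, 49.2% both, and 30.5% neighbouring boxes. Of the windows of 31 genes of S phase, the phase of DNA synthesis, 64.5% held a CCAAT box and 22.6% a hexamer. Neither element was found in the windows of Pttg1, Mad2l1, Nuf2, Nusap1, and Ncaph. Bub3, Cenpn, and Kif22 held both, as did Ccnb1, Cdk1, Plk1, Cdc20, and Top2a. These shares are descriptions of letters in a fixed window and were not tested.

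**Figure D1:**
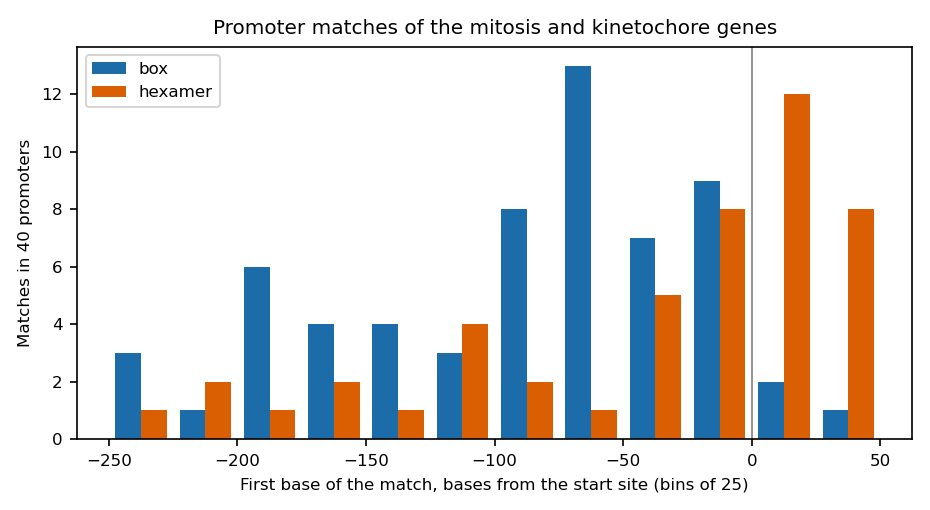
Positions of the 61 box matches (blue) and 47 hexamer matches (orange) in the promoters of 40 of the 48 genes, in bins of 25 bases, with the distance from the start site in bases on the horizontal axis and the number of matches on the vertical axis. Most box matches lie before the start site (median position -71), and the hexamer matches gather around it (median position -17).

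In whole retina the 48 genes were expressed throughout, at a median of 31.0 FPKM at E15 and 35.3 FPKM at E18, and the median was 37.5 FPKM in P2 Cd73NC. It was 11.4 FPKM in P2 Cd73PC, 9.65 and 3.59 FPKM in Cd73NC and Cd73PC at P5, and 1.77 and 0.733 FPKM at P8. Together they made up 0.460% of all FPKM at E15, 0.546% at E18, and 0.539% in P2 Cd73NC, and 0.0388% and 0.0293% in Cd73NC and Cd73PC at P8. The highest of the 8 values was that of P2 Cd73NC for 29 genes, of E18 for 16, and of E15 for Aurka, Cenpf, and Kif20b. The lowest was that of P8 Cd73PC for 38 genes and that of P8 Cd73NC for the other 10. In each fraction every one of the 48 genes was lower at P5 than at P2 and lower again at P8. None was listed at 0 in any library.

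**Figure D2:**
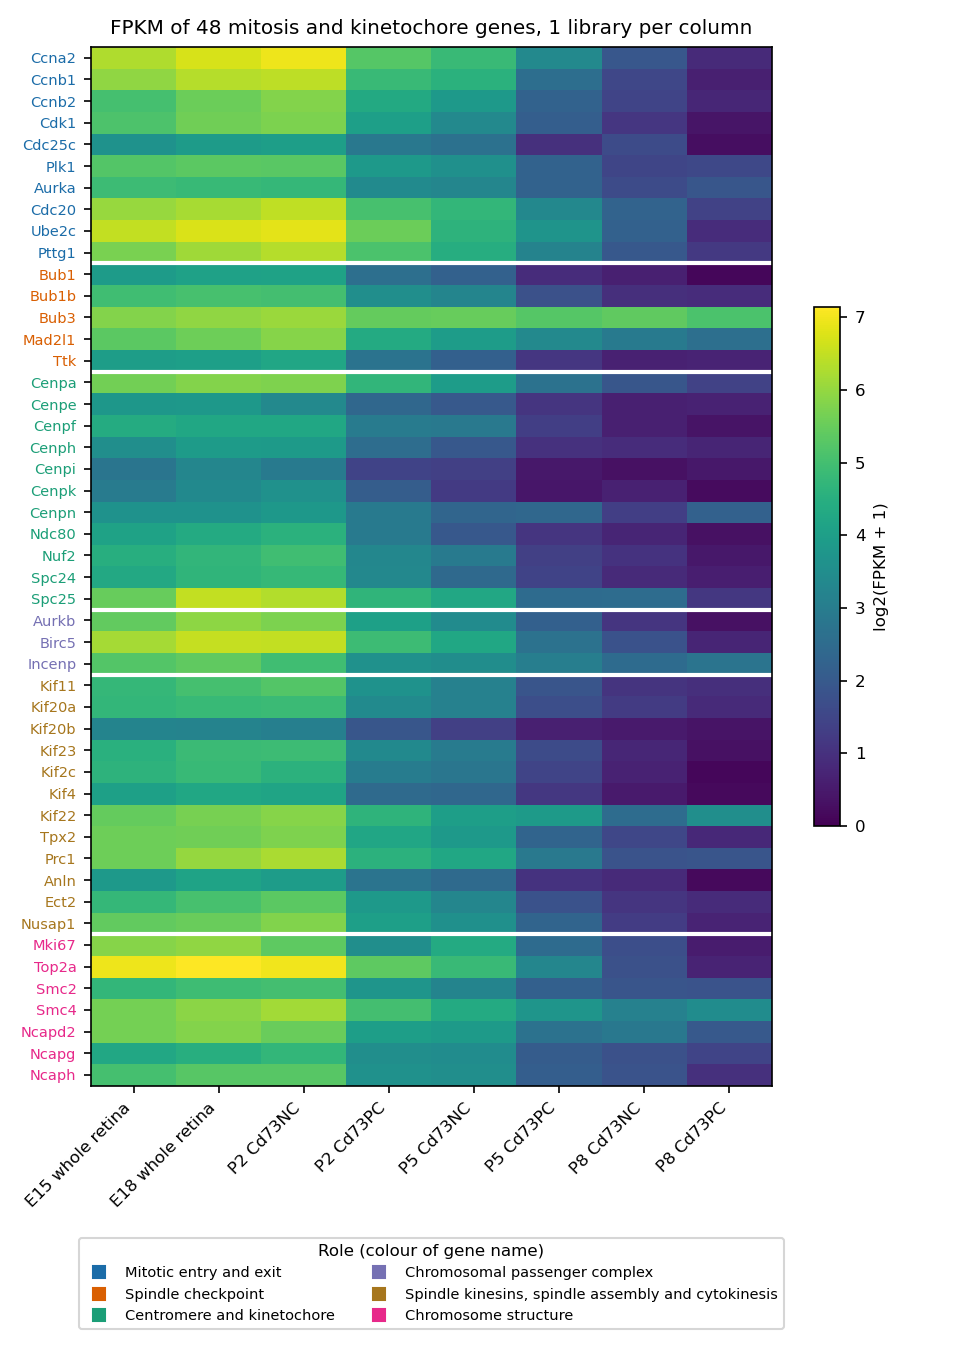
Expression of the 48 genes (rows, grouped and coloured by role) in the 8 libraries (columns), as log2(FPKM + 1) on the colour scale, 1 library per column. Levels are high in the columns for whole retina and P2 Cd73NC and low in those for P8, where the row of Bub3 alone stays bright.

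Among the genes for entry into and exit from mitosis, Ccna2, cyclin A2, was at 77.5 FPKM in E15 and 105 FPKM in E18 whole retina, at 123 and 37.8 FPKM in Cd73NC and Cd73PC at P2, at 27.6 and 9.38 FPKM at P5, and at 2.85 and 0.790 FPKM at P8. Ccnb1, cyclin B1, which with Cdk1 triggers mitosis, was at 61.8 and 80.9 FPKM in E15 and E18 whole retina, at 85.7 and 27.7 FPKM in the fractions at P2 (Cd73NC first), at 22.7 and 4.99 FPKM at P5, and at 1.85 and 0.543 FPKM at P8. Cdk1 itself was at 34.8 and 47.8 FPKM in E15 and E18 whole retina, at 52.9 and 15.5 FPKM at P2, at 9.34 and 3.41 FPKM at P5, and at 1.17 and 0.334 FPKM at P8. All 3 were highest in P2 Cd73NC and were below 1 FPKM in P8 Cd73PC. Ccna2 shares 863 bases with Exosc9, and a pseudogene of Ccnb1 is annotated, so with reads of 36 bases and no strand information part of their low values may belong to other loci.

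Plk1, a kinase that acts from entry to cytokinesis, was at 36.6 and 39.6 FPKM in E15 and E18 whole retina, at 38.8 and 13.3 FPKM in Cd73NC and Cd73PC at P2, at 11.1 and 3.77 FPKM at P5, and at 1.80 and 1.90 FPKM at P8. Ube2c, the ubiquitin-conjugating enzyme of the anaphase promoting complex, was at 88.9 and 107 FPKM in whole retina, at 114 and 45.7 FPKM at P2, at 23.8 and 11.9 FPKM at P5, and at 3.70 and 0.863 FPKM at P8. Pttg1, securin, which keeps the protease of sister chromatid cohesion inactive, was at 51.7 and 68.7 FPKM in whole retina, at 80.5 and 34.1 FPKM at P2, at 20.9 and 8.16 FPKM at P5, and at 2.94 and 1.26 FPKM at P8. The fractions thus lay apart at P2 and P5 for all 3, and at P8 they still lay apart for Ube2c and not for Plk1. For Pttg1 the Cufflinks confidence bounds of the P8 values overlapped, although the values differed. The other genes of this group, Ccnb2, Cdc25c (the phosphatase that activates Cdk1), Aurka (a kinase of the centrosome), and Cdc20 (the activator of the anaphase promoting complex that the checkpoint holds), followed the same course, and Aurka was at 2.77 FPKM in Cd73PC and 2.101 FPKM in Cd73NC at P8, with overlapping bounds.

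The spindle checkpoint genes did not behave alike. Bub1b, the checkpoint kinase BubR1, was at 30.0 and 32.7 FPKM in E15 and E18 whole retina, at 31.0 and 10.6 FPKM in the fractions at P2, at 8.58 and 2.40 FPKM at P5, and at 0.962 and 0.858 FPKM at P8. Mad2l1, whose product binds and inhibits Cdc20, was at 39.4 and 46.4 FPKM in whole retina, at 56.8 and 19.7 FPKM at P2, at 14.4 and 9.27 FPKM at P5, and at 6.54 and 5.14 FPKM at P8. Bub3 (chr7:138703905-138715412 in NCBI37/mm9), the adaptor that brings Bub1 and BubR1 to the kinetochore, was at 55.1 and 61.2 FPKM in whole retina, at 66.7 and 43.2 FPKM at P2, at 43.7 and 37.6 FPKM at P5, and at 41.7 and 33.8 FPKM at P8. Bub3 thus kept 68.2% of its E18 level in P8 Cd73NC and 55.3% in P8 Cd73PC, where the median of the 48 genes was 4.08% and 2.22%. Bub1 and Ttk, the kinases at the head of the checkpoint, were between 14.2 and 17.6 FPKM up to P2 Cd73NC and between 0.101 and 0.637 FPKM at P8.

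At the centromere and kinetochore, Cenpa, the histone H3 variant that marks centromeric chromatin, was at 48.1 and 56.0 FPKM in E15 and E18 whole retina, at 53.5 and 25.1 FPKM in Cd73NC and Cd73PC at P2, at 14.4 and 5.49 FPKM at P5, and at 2.79 and 1.66 FPKM at P8. Cenpe, a kinetochore kinesin, was at 12.7 and 13.1 FPKM in whole retina, at 9.25 and 4.21 FPKM at P2, at 2.99 and 1.15 FPKM at P5, and at 0.542 and 0.617 FPKM at P8. Ndc80, which with Nuf2, Spc24, and Spc25 forms the complex that grips microtubules, was at 16.5 and 19.8 FPKM in whole retina, at 22.8 and 6.74 FPKM at P2, at 2.93 and 1.16 FPKM at P5, and at 0.670 and 0.261 FPKM at P8. Of the 4 subunits of that complex, Spc25 had the highest FPKM in every library, from 89.4 FPKM in E18 whole retina to 1.23 FPKM in P8 Cd73PC. Cenph, Cenpi, Cenpk, and Cenpn belong to the inner kinetochore. Cenpi was the lowest of the 48 genes in E15 whole retina and in both fractions of P2, at 5.84 FPKM in E15 and 1.70 FPKM in P2 Cd73PC. Cenpn (chr8:119445640-119465403 in NCBI37/mm9) was at 11.6 FPKM in both whole retinas, at 12.98 and 6.52 FPKM at P2, at 4.01 and 4.28 FPKM at P5, and at 1.49 and 3.70 FPKM at P8, and thus passed from lower to higher in Cd73PC.

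In the chromosomal passenger complex, which corrects faulty attachments and later moves to the midzone, the kinase and its partner fell further than the scaffold. Aurkb, the kinase, was at 42.5 and 60.2 FPKM in E15 and E18 whole retina, at 52.0 and 15.6 FPKM in the fractions at P2, at 9.95 and 3.58 FPKM at P5, and at 1.15 and 0.238 FPKM at P8. Birc5, survivin, was at 72.0 and 90.2 FPKM in whole retina, at 88.5 and 29.0 FPKM at P2, at 18.2 and 5.47 FPKM at P5, and at 2.51 and 0.678 FPKM at P8. Incenp, the scaffold that both bind, was at 36.6 and 41.7 FPKM in whole retina, at 29.8 and 11.2 FPKM at P2, at 10.3 and 7.28 FPKM at P5, and at 4.64 and 5.70 FPKM at P8. In P8 Cd73PC the level of Incenp was 13.6% of that in E18 whole retina, that of Birc5 was 0.752%, and that of Aurkb was 0.395%.

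Among genes for the spindle and cytokinesis, Kif11, the kinesin that pushes spindle poles apart, was at 26.1 and 31.7 FPKM in E15 and E18 whole retina, at 36.5 and 11.5 FPKM in Cd73NC and Cd73PC at P2, at 7.91 and 2.66 FPKM at P5, and at 1.12 and 0.967 FPKM at P8. Ect2, the exchange factor that sets the cleavage furrow, was at 26.1 and 32.4 FPKM in whole retina, at 39.7 and 13.4 FPKM at P2, at 8.68 and 2.51 FPKM at P5, and at 1.15 and 0.855 FPKM at P8. Kif22 (chr7:134171245-134185934 in NCBI37/mm9), a kinesin that binds chromosome arms, was at 42.7 and 50.3 FPKM in whole retina, at 56.2 and 24.3 FPKM at P2, at 15.0 and 13.9 FPKM at P5, and at 4.81 and 10.7 FPKM at P8. Kif22 therefore ended higher in Cd73PC than in Cd73NC, as Cenpn did, but a pseudogene of Kif22 is annotated, so its level is uncertain. The lowest level relative to E18 whole retina was that of Kif2c, a kinesin that depolymerizes microtubules, which fell from 27.0 FPKM in E18 whole retina to 0.0993 FPKM in P8 Cd73PC, or 0.368% of that level. The other kinesins of the group, Kif20a, Kif20b, Kif23, and Kif4, and Tpx2 and Nusap1 (spindle assembly), Prc1 (midzone bundling), and Anln (the contractile ring) fell to between 0.139 and 2.72 FPKM in P8 Cd73PC.

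Among genes of chromosome structure, Top2a (chr11:98854261-98885503 in NCBI37/mm9), the topoisomerase that untangles sister chromatids, was the highest of the 48 in the first 3 libraries. It was at 124 and 141 FPKM in E15 and E18 whole retina, at 128 and 40.4 FPKM in Cd73NC and Cd73PC at P2, at 27.5 and 8.66 FPKM at P5, and at 2.44 and 0.645 FPKM at P8. Mki67 (chr7:142881471-142908062 in NCBI37/mm9), the proliferation antigen Ki-67, was at 56.4 and 60.9 FPKM in whole retina, at 40.4 and 10.53 FPKM at P2, at 19.8 and 4.64 FPKM at P5, and at 2.27 and 0.460 FPKM at P8. Mki67 had gone down less than any gene but Bub3 in Cd73NC between P2 and P5, to 48.9% of its P2 level, where the median gene was at 25.1%. Smc4, a condensin core subunit, was at 49.3 and 59.1 FPKM in whole retina, at 70.3 and 31.2 FPKM at P2, at 19.7 and 12.2 FPKM at P5, and at 7.79 and 10.1 FPKM at P8. Ncapd2, a subunit of condensin I, was at 49.4 and 55.8 FPKM in whole retina, at 45.1 and 15.2 FPKM at P2, at 13.8 and 5.46 FPKM at P5, and at 6.23 and 3.002 FPKM at P8. The condensin subunits Smc2, Smc4, Ncapd2, Ncapg, and Ncaph were at 1.01 FPKM or more in P8 Cd73PC, where Mki67 and Top2a were not. Ncapg shares 105 bases with Lcorl, which was at 19.9 FPKM in that library, so part of its value may belong there.

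Differences between libraries are given from here as differences of log2(FPKM + 1), which understate the change of genes near or below 1 FPKM. A gene was counted as lower or higher when it differed by 1.5-fold or more on that scale, and the share of the 12339 genes with a mean of at least 1 FPKM that did so is given beside the count. Up to P2 Cd73NC few of the genes changed. Between E15 and E18 1 of the 48 genes rose, Spc25 by 1.02 (background 7.28%), none fell (background 3.05%), and the median difference was 0.22. Between E18 whole retina and P2 Cd73NC none fell (background 12%) and none rose (background 5.38%), with a median of 0.08. The lowest differences there were those of Mki67 (-0.58), Incenp (-0.47), and Cenpe (-0.46). Whole retina and a sorted fraction differ in handling as well as in age, and these cannot be told apart.

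At P2 all 48 genes were lower in Cd73PC than in Cd73NC, where 24.2% of all genes were lower and 13.9% were higher. The median difference was -1.49, against -0.14 over all genes, and the Cufflinks bounds of the 2 libraries were apart as well for each of the 48 (background 23.9%). The size of the difference was similar from gene to gene. The FPKM in Cd73PC was 33.9% of that in Cd73NC for the median gene, and it lay between 25% and 40% for 38 of the 48. The largest differences were those of Mki67 (-1.84), Nusap1 (-1.74), and Kif4 (-1.71), and the smallest were those of Bub3 (-0.61), Cenpn (-0.90), and Cenpe (-0.98). The medians of the 6 groups by role lay between 32.7% for the passenger complex and 36.04% for entry and exit. Compared with E18 whole retina, 47 of the 48 were lower in P2 Cd73PC (background 28.7%), all but Bub3, and none was higher (background 14.6%), with a median difference of -1.40 and the largest difference in Mki67 (-2.42).

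**Figure D3:**
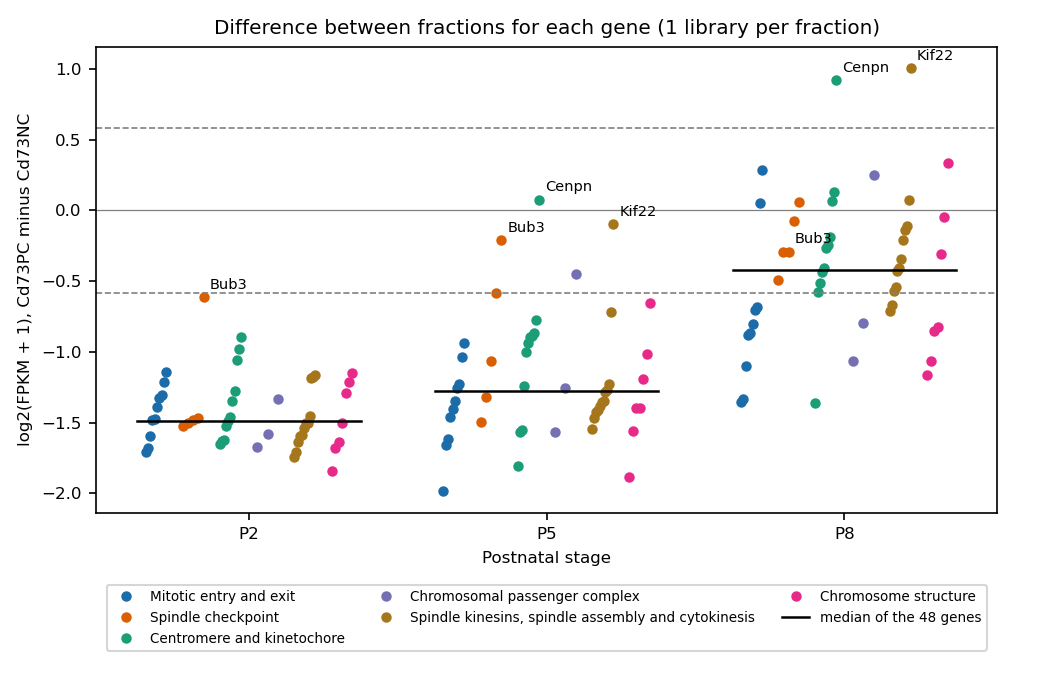
Difference in log2(FPKM + 1), Cd73PC minus Cd73NC, for each of the 48 genes at P2, P5, and P8, coloured by role, with 1 library per fraction. Black lines are medians (-1.49, -1.28, and -0.42) and dashed lines mark 1.5-fold. The points lie close together at P2 and spread out by P8, where Cenpn and Kif22 are above the upper dashed line.

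At P5 44 of the 48 genes were lower in Cd73PC (background 26.3%) and none was higher (background 11.6%), with a median difference of -1.28 against -0.18 over all genes. The 4 others were Bub3 (-0.21), Kif22 (-0.10), Cenpn (0.08), and Incenp (-0.45), and the bounds of the first 3 overlapped between fractions. The largest differences were those of Ccnb1 (-1.99), Mki67 (-1.88), and Spc25 (-1.81). The median gene in Cd73PC was at 33.7% of its level in Cd73NC, close to the value at P2, while the range had widened to between 18.8% for Cdc25c and 106.7% for Cenpn. The levels themselves were much lower by then. Between P2 and P5 all 48 genes fell in Cd73NC (background 15.9%, and 12.7% for a rise), by a median of 1.85 on the log2 scale, most of all Ndc80 (-2.60), Cenpk (-2.40), and Cdk1 (-2.38). In Cd73PC 45 fell (background 14.6%, and 5.38% for a rise), by a median of 1.70 on the log2 scale, and Bub3, Cenpn, and Incenp differed by -0.20, -0.51, and -0.56. The level in P2 Cd73PC was still above that in P5 Cd73NC for 46 genes, all but Bub3 and Mki67.

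At P8 the count of lower genes depended on the scale. On the FPKM + 1 scale 17 of the 48 genes, or 35.4%, were lower in Cd73PC, near the 29.8% of all genes that were lower, and 2 were higher (background 12.4%). With the threshold set on FPKM itself, 29 of the 48, or 60.4%, were lower (background 35.1%) and the same 2 were higher (background 14.1%). The median difference was -0.42, against -0.22 over all genes. The 17 on the FPKM + 1 scale included the cyclins Ccna2, Ccnb1, and Ccnb2, and Cdk1, Aurkb, Birc5, Mki67, and Top2a, with the largest differences in Spc25 (-1.36), Cdc25c (-1.35), and Ube2c (-1.34). By role and on that scale, 8 of the 10 genes for entry and exit were lower, 2 of the 3 of the passenger complex, 4 of the 7 of chromosome structure, 2 of the 12 of the spindle and cytokinesis, 1 of the 11 of the centromere and kinetochore, and none of the 5 of the checkpoint. These counts by role hold for that scale only, since it understates the change of genes near or below 1 FPKM. As a ratio of FPKM, the median gene in Cd73PC was at 34.9% of Cd73NC for entry and exit and 27% for the passenger complex. It was at 48.2% for chromosome structure, 51% for the spindle and cytokinesis, 59.5% for the centromere and kinetochore, and 81.2% for the checkpoint. Bub1 and Kif2c, not counted as lower, were at 18.5% and 16.5%, with bounds apart. The other checkpoint genes were at 78.6% or more. The 2 genes counted as higher were Kif22, by 1.004, and Cenpn, by 0.92. The bounds of Kif22 were 8.80 to 11.2 FPKM in Cd73PC and 3.85 to 5.68 FPKM in Cd73NC, and those of Cenpn were 2.77 to 4.49 FPKM and 1.02 to 1.89 FPKM.

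Many of the values at P8 were low. Of the 48 genes, 15 were below 1 FPKM in Cd73NC and 31 in Cd73PC, and the bounds overlapped between fractions for 19. With a pseudocount of 0.1 the count of lower genes was 28 (background 34.5%), and the median difference was -1.04 against -0.25 over all genes. At a 2-fold threshold 7 were lower (background 18.2%). After quantile normalization 7 were lower (background 20.9%) and 6 were higher (background 19.3%). As a ratio of FPKM the median gene in Cd73PC was at 46.2% of its level in Cd73NC. It was at 44.3% over the 33 genes that reached 1 FPKM in either fraction.

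Between P5 and P8 46 of the 48 genes fell in Cd73NC (background 13.4%, and 12.6% for a rise), by a median of 1.86 on the log2 scale. In Cd73PC 35 fell (background 8.1%, and 5.28% for a rise), by a median of 0.88 on the log2 scale, 18 of them by 2-fold (background 2.23%). No gene of the 48 rose in either fraction. In Cd73NC the largest differences were those of Ccnb1 (-3.06), Top2a (-3.05), and Ccna2 (-2.89), and the 2 genes within the threshold were Bub3 (-0.07) and Cenpk (-0.56). In Cd73PC the largest were those of Ube2c (-2.80), Top2a (-2.55), and Ccna2 (-2.54). The 13 genes within the threshold there were Aurka, Bub3, Ttk, Cenpe, Cenph, Cenpi, Cenpk, Cenpn, Incenp, Kif20b, Kif22, Smc2, and Smc4. In P8 Cd73PC 10 of the 48 genes were still at 2.5 FPKM or more. They were Aurka, Bub3, Mad2l1, Cenpn, Incenp, Kif22, Prc1, Smc2, Smc4, and Ncapd2, and none is a cyclin or a subunit of the Ndc80 complex. The 10 genes higher in Cd73PC than in Cd73NC at P8, by any amount, were Plk1, Aurka, Ttk, Cenpe, Cenpi, Cenpn, Incenp, Kif22, Prc1, and Smc4.

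**Figure D4:**
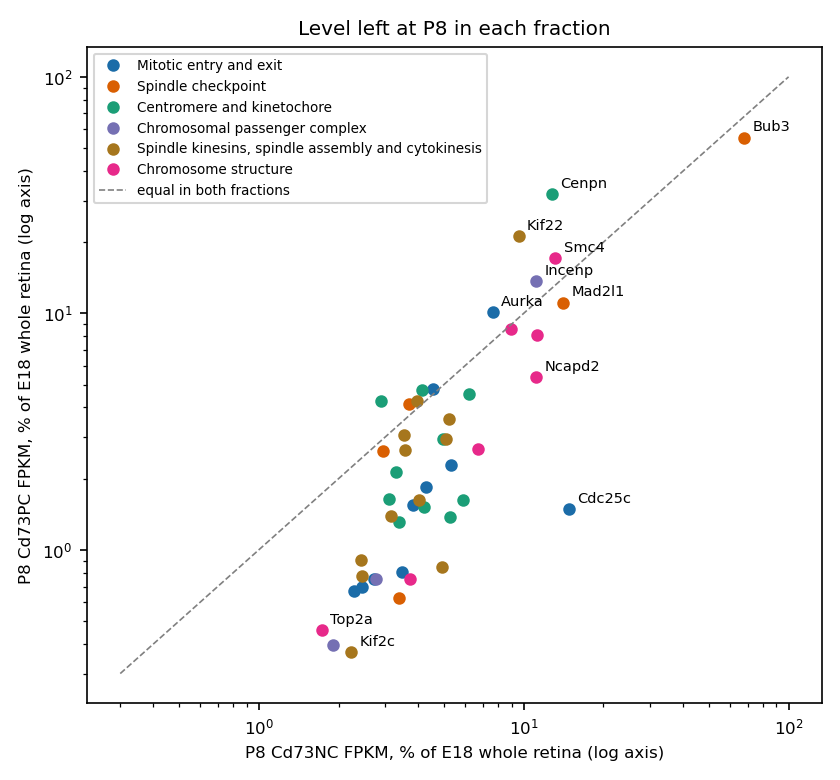
Level of each of the 48 genes at P8 as a percentage of its FPKM in E18 whole retina, in Cd73NC (horizontal) and Cd73PC (vertical), both on log axes and coloured by role. The dashed line marks equal levels in both fractions. Bub3 stands alone at the upper right (68.2% and 55.3%), Cenpn and Kif22 lie above the line, and Cdc25c lies furthest below it.

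Markers of other cells took different courses over the same libraries, some with that of the 48 genes and some against it. At P2 the median FPKM of 10 markers of retinal progenitors was 146 in Cd73NC and 34.1 in Cd73PC. By P5 it had gone to 73.4 in Cd73NC and 15.2 in Cd73PC and by P8 to 29.2 and 6.07, and none of the 10 was at 0. Of these, Rax took another course, at 81.5 FPKM in Cd73NC and 198 FPKM in Cd73PC at P8. The summed FPKM of 8 microglial markers was 8.88 in P2 Cd73NC and 52.7 in P2 Cd73PC, and it reached 186 and 141 by P8. At that stage the sum of 6 red blood cell markers was 7007 in Cd73NC and 2764 in Cd73PC. The sum of 7 endothelial markers was 79.8 in Cd73NC and 14.6 in Cd73PC, of which Kdr alone gave 67.5 and 9.47 FPKM. Pecam1 (0.562 and 0.548 FPKM), Cdh5 (0.661 and 0.469 FPKM), and Tek (0.0887 and 0.0703 FPKM) were low in both. None of these was at 0 in either P8 library. The median FPKM of 8 bipolar cell markers in Cd73NC was 2.40 at P2, when Bhlhe23 and Grm6 were at 0, 13.6 at P5, and 157 at P8, and in Cd73PC it was 2.22, 3.07, and 14.8. The sum of 7 Müller glia markers was 1223 in Cd73NC and 541 in Cd73PC at P2, and 1377 and 421 at P8. These markers did not move together. From P2 to P8 in Cd73NC Apoe (110 to 540 FPKM), Rlbp1, Aqp4, and Car2 rose, while Dkk3 (489 to 200 FPKM), Glul, and Slc1a3 fell. At P2 Apoe was higher in Cd73PC, at 162 FPKM. The sum of 7 ganglion cell markers went from 584 in E18 whole retina to 19.7 in Cd73NC and 7.04 in Cd73PC at P2. The sum of 4 astrocyte markers was 2.54 in Cd73NC and 25.4 in Cd73PC at P2, and 23.0 and 8.09 at P8. Over the 8 libraries the sum of 4 amacrine markers lay between 10.8 and 73.0 and that of 4 horizontal cell markers between 6.76 and 167. The highest of each came almost wholly from 1 gene. In P5 Cd73PC Slc6a9 was at 72.3 FPKM, and Gad1, Ptf1a, and Chat were at 0.0392, 0.636, and 0 FPKM. In P8 Cd73NC Prox1 was at 166 FPKM, and Onecut1, Onecut2, and Lhx1 were at 0.0812, 1.34, and 0 FPKM. The sum of 6 cone markers lay between 23.8 and 165. The part of any of these cells in the values of the 48 genes was not tested.

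Other genes of cell division were compared to see how far the course was shared. Of 70 further mitosis genes, 63 were lower in Cd73PC at P2, with a median difference of -1.36, and 55 at P5, with a median of -0.93. The largest differences of these at P2 were those of Esco2 (-1.94), a cohesin acetyltransferase, Cdca5 (-1.93), sororin, and Fam83d (-1.84), and the smallest were those of Zwint (-0.04), Ckap5 (-0.25), and Cenpt (-0.34). Of 37 S phase genes, 36 were lower at P2, with a median of -1.58, while at P5 22 were lower and 1 higher, with a median of -0.73. At P8 15 of the 70 were lower on the FPKM + 1 scale, a smaller share than over all genes, and 3 were higher. That standing holds for that scale only, since their median was then 1.10 FPKM in Cd73NC and 0.618 FPKM in Cd73PC. As a ratio of FPKM, the median of the 70 in Cd73PC was at 52.4% of Cd73NC. Of the 37 S phase genes, 17 were lower and 1 was higher at P8 on the FPKM + 1 scale. In P8 Cd73NC the median S phase gene was at 13.4% of its E18 level, where the median of the 48 was 4.08%. Genes for the core of the anaphase promoting complex and for cohesin mostly changed less, and the reason was not tested. Anapc5, of the first of these lists, did fall, to 17.6% of its E18 level in P8 Cd73PC. Of 12 genes for the core of the anaphase promoting complex 1 was lower at P2, while at P5 2 were lower and 2 higher, and their median was 29.2 FPKM in E18 whole retina, 28.4 FPKM in P8 Cd73NC, and 20.9 FPKM in P8 Cd73PC. Of 9 genes for cohesin, the ring that holds sister chromatids, 2 were lower at P2 and 1 at P5, no larger a share than over all genes. Cdc20 and Ube2c, which serve the anaphase promoting complex, fell to 2.29% and 0.808% of their E18 level in P8 Cd73PC. The median of its core genes was at 72.0% there, with a range from 17.6% to 139%.

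**Figure D5:**
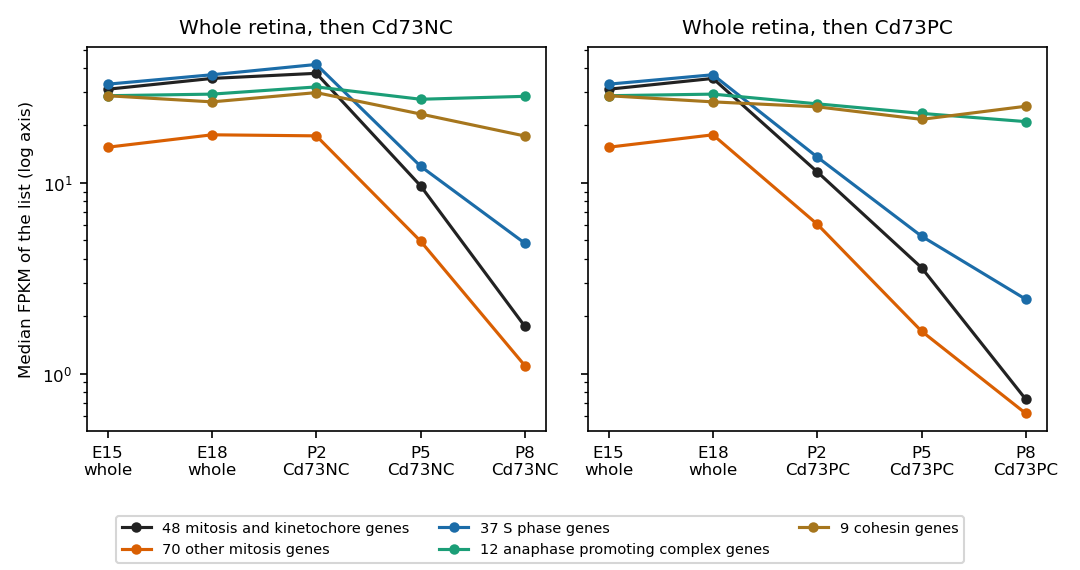
Median FPKM (log axis) of the 48 genes and of 4 other lists, from E15 and E18 whole retina into Cd73NC (left) or Cd73PC (right) at P2, P5, and P8, with 1 library per point. The 48 genes (black) end at 1.77 and 0.733 FPKM, below the 37 S phase genes, while the medians of the anaphase promoting complex and cohesin genes stay at 17.6 FPKM or above.

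The profile of each gene over the 8 libraries was set beside the median profile of the 48, on the log2(FPKM + 1) scale, by Pearson's correlation. The 8 points include 2 fractions from each postnatal stage, so they are not independent and the values are descriptions. The median r was 0.991, and 45 of the 48 genes had an r of at least 0.95. The exceptions were Cenpn (0.898), Kif22 (0.927), and Bub3 (0.929). Among 12291 other genes the 10 most like the median profile were Rrm2, Cdca3, Melk, Cdca8, Gtse1, Uhrf1, Wrn, Kif15, Ckap2l, and Shcbp1, all with an r of at least 0.996, of which 7 were on the list of further mitosis genes and Rrm2 and Uhrf1 on that of S phase.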

How the data were processed

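RNA was sequenced as single-end reads of 36 bases without strand information. The authors aligned the reads to NCBI37/mm9, calculated FPKM with confidence bounds, and deposited a table of 23021 rows per library. The submitters' processing notes name CASAVA 1.8.2, bcl2fastq 1.8.4, TopHat2 2.0.8b, and Cufflinks 2.1.1. Rows of small RNAs (787) were removed here, rows of a symbol were summed (235 symbols, none of the 48), and failed estimates were taken as missing.

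The 48 genes, the lists, and the rule for naming genes were chosen with earlier results of these data known. All 48 may be named. Values in all 8 libraries were given for 20 of them chosen by role and for exceptions chosen after their values were seen, and for each comparison the 3 largest and 3 smallest differences were considered. Of other genes, those with the largest and smallest differences at P2 and the 10 most similar profiles were named. Values of some single genes are not reported here.

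Differences were taken as log2(FPKM + 1), with a threshold of 1.5-fold on that scale, where the study set it on FPKM itself. Counts on FPKM itself were added after seeing the data. With 1 library per condition no difference was tested. The deposited FPKM lay above its own upper bound for up to 13 of the 48 genes in a library. Absolute depth is unknown, so no counting interval or floor is given, and relative depth was read from the steps of values under 0.3 FPKM. The code was tested on simulated data. Alternatives were a pseudocount of 0.1, upper quartile and quantile scaling, a 2-fold threshold, bounds apart, other filters on low values, and the highest row of a symbol. Python 3.11.15, numpy 2.4.6, and pandas 2.3.3 were used.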

Additional observations from a re-analysis of the deposited data

How the results depend on the processing

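No median over the 48 genes changed its sign under the alternatives tried, but the standing relative to all genes did change in places. At P8 35.4% were lower on the FPKM + 1 scale, near the background of 29.8%. On FPKM itself 60.4% were lower, above the background of 35.1%. At a 2-fold threshold (7 of 48, background 18.2%) and after quantile normalization (7 of 48, background 20.9%) the share was below the background. For P2 Cd73NC against E18 the median of the 48 minus that of all genes was 0.10, and -0.03 after quantile normalization. Of 150 values for counts and medians under an alternative, 138 were close to the reported one (counts within 1.5 times) and 12 were not. Most of the 12 concern P8, where levels were low. With a pseudocount of 0.1 the median difference at P8 was -1.04 with 28 genes lower in Cd73PC, and the medians from P5 to P8 were -2.49 in Cd73NC and -1.67 in Cd73PC. Lower genes at P8 were 29 with the threshold on FPKM itself, 7 after quantile normalization, and 7 at a 2-fold threshold, and 18 genes fell by 2-fold from P5 to P8 in Cd73PC. In place of none, 1 gene was lower in P2 Cd73NC than in E18 whole retina with a pseudocount of 0.1, with upper quartile scaling, with quantile normalization, and on FPKM itself. Quantile normalization changed the split of all genes, lower and higher, from 26.3% and 11.6% to 18.5% and 16.3% at P5, from 29.8% and 12.4% to 20.9% and 19.3% at P8, from 28.7% and 14.6% to 21.9% and 20.6% for P2 Cd73PC against E18, from 12% and 5.38% to 8.99% and 7.29% for P2 Cd73NC against E18, from 14.6% and 5.38% to 8.99% and 7.61% for P5 against P2 Cd73PC, and from 3.05% and 7.28% to 4.61% and 6.03% for E18 against E15. At P5 36 of the 48 were then lower, with a median of -0.92 against 0.00 over all genes. The labels carry no replicate numbers. Both fractions of a stage were sorted from the same retinas, so the differences between fractions are within a stage, and a fit that takes the 3 stages as pairs was not run. With 1 library per condition none was left out in turn. Setting the threshold on FPKM itself, restricting P8 to genes of at least 1 FPKM, and leaving out the 9 genes that overlap another gene or have a pseudogene, were chosen after seeing the data. The 9 are Ccna2, Ccnb1, Ccnb2, Cdc20, Kif20a, Kif22, Kif4, Ncapg, and Nusap1. Part of their low values may belong to other loci, and counts without them are not reported here.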

Other observations

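Genes outside the lists of cell division also followed the median profile of the 48 genes. Of the 100 other genes most like it, 36 were on the list of further mitosis genes, 11 on that of S phase, and 52 on none of the lists. The lists are not complete, and cell cycle genes such as Cdk2, Wee1, and Dbf4 were among the 52. These and the following were named after their values were seen. Ccnd1, cyclin D1, which drives entry into the cell cycle and served here as a progenitor marker, was at 839 FPKM in E15 and 1084 FPKM in E18 whole retina, at 1095 and 272 FPKM in Cd73NC and Cd73PC at P2, at 240.4 and 76.3 FPKM at P5, and at 41.8 and 9.31 FPKM at P8. The high mobility group gene Hmgb2 was at 151 and 210.0 FPKM in whole retina, at 293 and 113 FPKM at P2, at 61.9 and 31.9 FPKM at P5, and at 15.4 and 12.8 FPKM at P8. The ribosomal protein genes Rpl12 and Rps6 were also among the 100, with a smaller range, such as Rpl12 at 464 FPKM in E18 whole retina and 200.3 FPKM in P8 Cd73PC. These are correlations over 8 libraries with shared stages, and they were not tested.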
